A study of Rattus norvegicus with 4 samples.

Results

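Basement membranes are thin sheets of matrix laid down by cells. Laminins, trimers of an α, a β and a γ chain, form a network that binds cell surface receptors, and the α chain sets much of that binding. Type IV collagen forms a separate network, and nidogens and the heparan sulfate proteoglycan perlecan bind to and bridge both networks. Peripheral glia such as Schwann cells are wrapped in a basement membrane in which laminin with the α2 chain is prominent, and ensheathing glia of the olfactory nerve also produce laminin. Described here are 10 genes of this sheet: the laminin chains Lama2, Lama4, Lama5, Lamb1, Lamb2 and Lamc1, the nidogens Nid1 and Nid2, the collagen chain Col4a1, and Hspg2, which encodes perlecan. They were chosen by gene name among the probes that are not controls. By name, 7 of the 10 genes were found, with 15 probes. The other 3 stand under other names in the files and have 7 probes: Lama4 under a locus name that the RefSeq table of the GRCr8 assembly gives as its synonym, and Col4a1 and Hspg2 under transcript identifiers whose descriptions in the files name the collagen chain and perlecan. All 22 probes of the 10 genes passed the filter on dim probes, and each was well above background on all 4 arrays in both channels. The whole series has 31894 tested gene names and 36749 tested probes.

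The cells were olfactory ensheathing cells, the glia that accompany olfactory axons, taken from male Fischer rats at 2 sites, the olfactory mucosa and the bulb, and cultured in the same way. The labels name no treatment and give no age. On each of 4 2-colour Agilent arrays, mucosa cells in Cy5 were set against bulb cells in Cy3. The arrays are biological replicates with paired samples, and nothing in the labels says how many animals or cultures went into each, so the p-values measure the spread between these 4 pairs. The dyes were never swapped, so an effect of the dye cannot be told apart from an effect of the tissue. A log2 ratio above 0 means a higher signal in mucosa cultures.

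Median signals were 567 to 842 in Cy5 and 342 to 382 in Cy3, 82.8% to 91.1% of spots were well above background, and 0 spots were saturated. The number of arrays limits the precision. In the cultures, the 18 markers of ensheathing and Schwann glia were all well above background on every array in both channels. Of these 18 markers, 9 were lower and 1 was higher in mucosa. Over all gene names 3.38% were called lower and 3.23% higher, and these shares apply to every marker list here. The marker lists were chosen with earlier results of these data known, so their counts beside these shares are descriptive. The summed signal of the glial markers was 48660 to 58853 in mucosa and 89633 to 121316 in bulb. That is a log2 ratio of -1.32 to -0.61 on the 4 arrays. Of 14 fibroblast markers, 5 were higher and 2 lower, with summed signals of 297515 to 336112 in mucosa and 120345 to 175952 in bulb. Of 9 markers of smooth muscle and pericytes, 4 were higher and 1 lower, with summed signals of 119341 to 138488 in mucosa and 60607 to 87285 in bulb. No marker of these 3 lists was at background in either culture. The sums weigh the brightest probes most and add signals that are not on 1 scale, so they are not amounts of a cell type. In endothelium and in epithelium 1 marker was higher and 1 lower of 11 and of 10 tested. In astrocytes 0 were higher and 2 lower of 10, and Gfap among these is also counted among the lower glial markers. In meninges 0 were higher and 2 lower of 8. In macrophages and microglia 0 of 8 passed in limma's test (0 at an unadjusted p under 0.05), with a summed ratio of -0.31 to 0.97. Single macrophage markers varied strongly between pairs. Cd68 had log2 ratios of 1.84, 0.75, -2.34 and -3.48 on replicates 1 to 4, while Tyrobp was above 0 on all 4 arrays. The absence of calls in this list therefore does not show equal signals. With 1 array left out (replicate 1, 2, 3 and 4 in turn), the glial markers called lower numbered 1, 2, 5 and 3, those of astrocytes and of endothelium 0 in each case in limma (3 to 6 and 2 to 3 at an unadjusted p under 0.05), those of fibroblasts 4 or 5 higher and 1 or 2 lower, and those of smooth muscle and pericytes 3 higher and 0 lower. Fewer cells of a type and less RNA per cell cannot be told apart in such bulk cultures, and the part of these marker differences in the results on basement membrane genes was not tested.

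At its brightest probe, Lama5, which encodes the laminin α5 chain, had a higher signal in mucosa cultures. Lamc1, which encodes the γ1 chain shared by most laminins, and Nid2 had higher signals in bulb cultures at theirs. These 3 of 10 genes were called at an adjusted p of 0.05. The brightest probe of each name was tested with limma, with Benjamini-Hochberg adjustment over all 31894 names. In that test 6.62% of all names were called, 3.23% as higher and 3.38% as lower in mucosa. With every probe tested in its own right, 6 of the 22 probes were called, 2 higher and 4 lower, against 6.54% of all probes. The 6 called probes belong to 5 genes: Lama2 with 2 probes lower, Lamc1 and Nid2 with 1 each lower, and Lama5 and Nid1 with 1 each higher. Of the 6, only the 2 Lama2 probes kept their call with any array left out. The gene calls of Lama5, Lamc1 and Nid2 were each lost with any array left out. With the deposited log ratio 0 of the 10 genes were called. Of the 22 probes, 17 had the same sign on all 4 arrays, 4 of them higher and 13 lower in mucosa, against 33.4% of all probes. Probes of a gene share a transcript and are not independent of each other. The median log2 ratio over the 10 genes was -0.51, and over all names it was 0.01. Centring each array on its median in place of loess raised the 10 ratios by 0.25 to 0.37, to a median of -0.17, and moved the share of higher names among all calls from 48.9% to 59.6%.

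**Figure D1:**
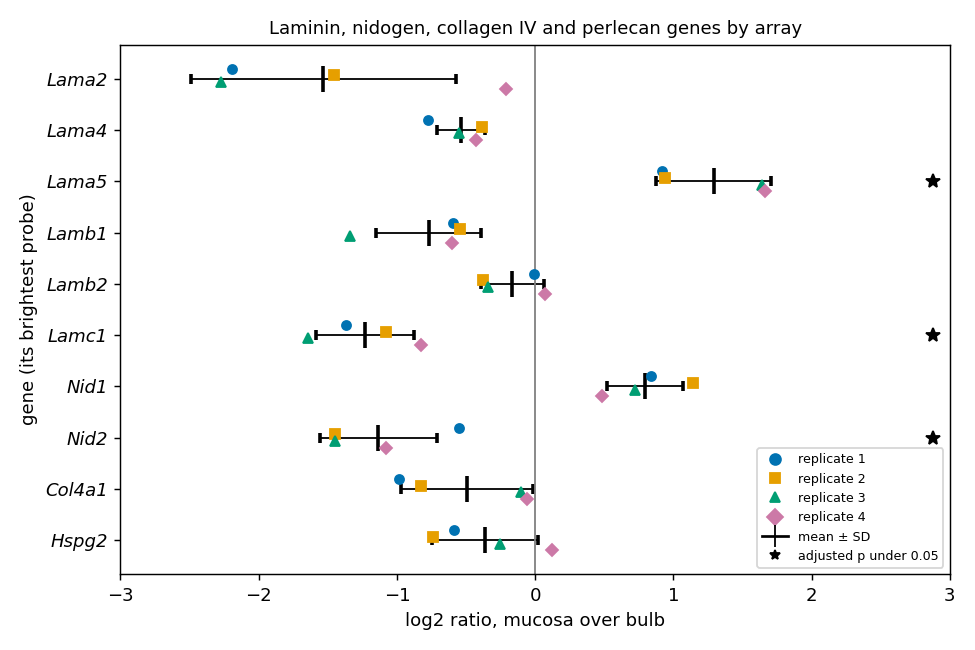
The x axis is the log2 ratio of mucosa over bulb, with 1 row per gene from its brightest probe, a coloured point per array, and the mean with its SD in black. Stars mark an adjusted p under 0.05 in the test of gene names, and Lama5 and Nid1 are the rows whose points all lie above 0.

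The probes are stretches of 60 bases from the transcript. Those shown here belong to genes with at least 1 called probe, and are the probes whose match in the rat genome build rn4 is longer than the probe itself, which puts them across an exon junction and therefore in exons of the spliced transcript. They show some of the stretches that these genes were read from, in lower case throughout, since no part of them is set apart. Probes without such a junction are not shown. Among those left out are the brightest Lama2 probe, Lama2 probe 4, the Nid2 probe and the called Nid1 probe. The first 2 are Lama2 probes, at chr1:18783119-18784945 and chr1:18798679-18803973 on the plus strand, the next are the Lama5 probes at chr3:169238178-169238316 and chr3:169234489-169234642 on the minus strand, then Lamc1 at chr13:68251375-68252423 and Nid1 at chr17:66858545-66859398, both on the minus strand.
Lama2 probe 2: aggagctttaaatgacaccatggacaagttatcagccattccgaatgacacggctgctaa
Lama2 probe 3: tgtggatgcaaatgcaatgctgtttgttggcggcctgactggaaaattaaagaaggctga
Lama5 probe 1: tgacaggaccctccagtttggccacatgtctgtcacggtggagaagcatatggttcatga
Lama5 probe 2: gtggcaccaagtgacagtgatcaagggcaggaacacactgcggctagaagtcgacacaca
Lamc1 probe 1: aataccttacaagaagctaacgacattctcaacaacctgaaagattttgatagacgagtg
Nid1 probe 3: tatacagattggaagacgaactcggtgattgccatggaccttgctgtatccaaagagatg
Probes are numbered along the gene's strand in rn4.

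Lama2 encodes the α2 chain, the main α chain of the laminin around Schwann cells and muscle fibres. All 4 of its probes had lower signals in mucosa than in bulb on all 4 arrays, and they lie far apart, from chr1:18726141-18726200 for probe 1 to chr1:18870086-18870145 for probe 4. The brightest, probe 1, had normalized signals of 2721, 3397, 1836 and 7115 in the mucosa cultures of replicates 1 to 4, and of 12449, 9319, 8867 and 8216 in the bulb cultures. The 2 sets do not overlap, but the mucosa culture of replicate 4 was brighter than the other mucosa cultures. Signals were not normalized between arrays, so sets compared across arrays, here and for the genes below, are descriptive. The tests used the ratio within each array, and the share of all probes whose sets separate was not counted. The log2 ratios were -2.19, -1.46, -2.27 and -0.21, with a mean of -1.53 ± 0.96 (SD, n = 4), 2.89-fold lower in mucosa, and limma's adjusted p was 0.0695. Without replicate 4 the mean was -1.97, with an adjusted p of 0.034 in limma, and without replicate 1, 2 or 3 the adjusted p was 0.189, 0.185 or 0.178. Averaging the 4 probes gave -1.80 with an adjusted p of 0.0125.

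Replicate 4 also had the smallest difference at probe 2, where the arrays were spread more evenly, but not at probes 3 and 4. Probe 2, with log2 ratios of -2.15, -2.48, -1.29 and -0.47, had a mean of -1.60 ± 0.90 (SD, n = 4) and an adjusted p of 0.0565 in limma's test of all probes, and without replicate 4 it was -1.97 with an adjusted p of 0.0456, against 0.168, 0.179 and 0.113 without replicates 1, 2 and 3. Probe 3 had mucosa signals of 887, 810, 691 and 657 against bulb signals of 3643, 2321, 2842 and 2339. Its log2 ratios of -2.04, -1.52, -2.04 and -1.83 gave a mean of -1.86 ± 0.25 (SD, n = 4), 3.62-fold lower, at an adjusted p of 0.00713 in limma. At probe 4 the mucosa signals were 642, 771, 571 and 701 and the bulb signals 3760, 2787, 3135 and 2734, so that every bulb culture was well above every mucosa culture at both probes. Its log2 ratios were -2.55, -1.85, -2.46 and -1.96, with a mean of -2.21 ± 0.35 (SD, n = 4), 4.62-fold lower, at an adjusted p of 0.00554, and this was the largest difference among the 22 probes. Both probes passed the threshold with each of the 4 arrays left out in turn, at adjusted p-values of 0.03 to 0.0488 for probe 3 and 0.0231 to 0.039 for probe 4 in limma.

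**Figure D2:**
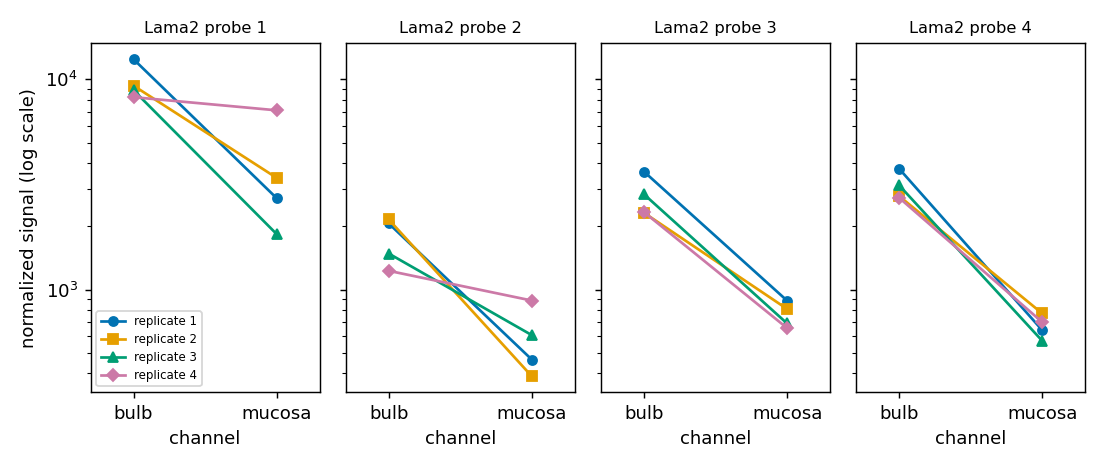
Each panel is a Lama2 probe, the y axis is the normalized signal on a log scale, and each line joins the bulb and the mucosa culture of a pair. Replicate 4, in purple, falls less than the other pairs at probes 1 and 2, and falls with them at probes 3 and 4.

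The means of the Lama2 probes spanned 0.67 on the log2 scale. Over the 3976 names with more than 1 tested probe the median of that span was 0.40, and 66.8% of them had all probes on 1 side of 0.

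Lama4 encodes the α4 chain, found in vessels and peripheral nerve. Its brightest probe, at chr20:43228617-43231652, had mucosa signals of 13190, 13578, 14185 and 15587 and bulb signals of 22576, 17757, 20762 and 20931. The mucosa cultures were all below the bulb cultures, by a small amount. The mean log2 ratio was -0.53 ± 0.18 (SD, n = 4), 1.45-fold lower, with a 95% interval of -1.02 to -0.05 before adjustment and an adjusted p of 0.173 in limma, so it was not called. The other probes gave -0.49 ± 0.36 and -0.45 ± 0.33 (SD, n = 4), at adjusted p-values of 0.254 and 0.277, and the span of the 3 means was 0.08.

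Lama5 encodes the α5 chain, widespread in epithelial and vascular basement membranes of adult tissue. Its brightest probe, probe 2, had mucosa signals of 8342, 9299, 11689 and 8425 and bulb signals of 4405, 4838, 3750 and 2666. Every mucosa culture was above every bulb culture. The log2 ratios were 0.92, 0.94, 1.64 and 1.66, with a mean of 1.29 ± 0.41 (SD, n = 4), 2.45-fold higher in mucosa, at an adjusted p of 0.0307 in limma. The other Lama5 probes, within a few kilobases on the same strand, were less even. Probe 1 had log2 ratios of 0.97, -0.48, 1.85 and 2.22, a mean of 1.14 ± 1.20 (SD, n = 4) and an adjusted p of 0.197, with replicate 2 on the other side of 0. Probe 3 had 0.75, 0.78, 1.46 and -0.27, a mean of 0.68 ± 0.71 (SD, n = 4) and an adjusted p of 0.249, with replicate 4 on the other side. The mean over the 3 probes was 1.04, with an adjusted p of 0.0679, and leaving out replicate 1, 2, 3 or 4 ended the call of probe 2, with means of 1.17 to 1.41 and adjusted p-values of 0.0799 to 0.0974 in limma.

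Lamb1 and Lamb2 encode the β1 and β2 chains, which replace each other in different laminins. The Lamb1 probe, at chr6:49178140-49179911, had mucosa signals of 6486, 5253, 5324 and 7327 and bulb signals of 9791, 7669, 13492 and 11102. The sets do not overlap, and the pair of replicate 3 differed most, with a log2 ratio of -1.34 against -0.59, -0.55 and -0.60. The mean was -0.77 ± 0.38 (SD, n = 4), 1.71-fold lower, with a 95% interval of -1.33 to -0.21 before adjustment and an adjusted p of 0.111 in limma. The Lamb2 probe had mucosa signals of 12246, 11297, 7633 and 10451 and bulb signals of 12326, 14666, 9654 and 9965, and the 2 sets overlap. Its mean log2 ratio was -0.16 ± 0.23 (SD, n = 4), with a 95% interval of -0.66 to 0.34 before adjustment and an adjusted p of 0.663, and its sign turned when arrays were centred on the median in place of loess, to 0.15. The files place this probe on sequence of chromosome 16 that is not ordered (start 1230338, end 1230397), and its identity rests on the name in the files.

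Lamc1 encodes the γ1 chain, the partner of the α2, α4 and α5 chains in their common laminins. Its brightest probe had mucosa signals of 4421, 5162, 3867 and 5584 and bulb signals of 11430, 10908, 12054 and 9907. Mucosa was below bulb within each of the 4 pairs, and the 2 sets of signals do not overlap. The log2 ratios of -1.37, -1.08, -1.64 and -0.83 gave a mean of -1.23 ± 0.35 (SD, n = 4), 2.34-fold lower in mucosa, at an adjusted p of 0.0304 in limma. The other probe, at chr13:68243126-68243185, was lower on all 4 arrays but uneven, with log2 ratios of -0.62, -0.83, -2.89 and -1.76, a mean of -1.53 ± 1.03 (SD, n = 4) and an adjusted p of 0.0818. The call at the brightest probe was lost without replicate 1, 2, 3 or 4, at means of -1.36 to -1.09 and adjusted p-values of 0.0585 to 0.112, and under median centring, at -0.96 with an adjusted p of 0.0527 in limma.

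The nidogens, which link laminin γ1 to type IV collagen, had log2 ratios of opposite sign. Nid1 signals at the brightest probe, probe 3, were 15906, 16853, 24943 and 18102 in mucosa and 8914, 7623, 15138 and 12930 in bulb, all mucosa cultures above all bulb cultures. Its log2 ratios of 0.84, 1.14, 0.72 and 0.49 gave a mean of 0.80 ± 0.27 (SD, n = 4), 1.74-fold higher, at an adjusted p of 0.083 in limma, so the gene was not called. Probes 1 and 2, at chr17:66901133-66901190 and chr17:66901111-66901170, overlap in part. They had means of 1.01 ± 0.33 and 1.00 ± 0.30 (SD, n = 4). Probe 2 was called at an adjusted p of 0.0487 and probe 1 was not at 0.0515. The call of probe 2 was lost without replicate 1, 2, 3 or 4, at adjusted p-values of 0.0909 to 0.194. All 3 probes were called under median centring, at 1.12 for probe 3 with an adjusted p of 0.0377 among all probes and 1.28 for probe 1 with 0.0267 in limma.

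Nid2, with 1 probe at chr15:4801457-4801516, had mucosa signals of 3283, 2401, 2064 and 2972 and bulb signals of 4812, 6552, 5641 and 6292. Every mucosa culture was below every bulb culture, and the pair of replicate 1 differed least. The log2 ratios of -0.55, -1.45, -1.45 and -1.08 had a mean of -1.13 ± 0.42 (SD, n = 4), 2.19-fold lower, at an adjusted p of 0.0453 in limma, close to the threshold. Without replicate 1, 2, 3 or 4 the call was lost, at means of -1.33 to -1.03 and adjusted p-values of 0.0721 to 0.177, and under median centring it was -0.89 with an adjusted p of 0.0896 in limma.

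Col4a1 encodes the α1 chain of type IV collagen, and its probes did not point the same way. The brightest, at chr16:83157546-83157605, had mucosa signals of 8926, 9693, 12528 and 13469 and bulb signals of 17689, 17139, 13439 and 14059, so that replicates 1 and 2 were lower in mucosa while replicates 3 and 4 were nearly level. Its mean log2 ratio was -0.49 ± 0.48 (SD, n = 4), with a 95% interval of -1.10 to 0.12 before adjustment and an adjusted p of 0.293 in limma. The other probe, at chr16:83045409-83045468, had a mean of 0.11 ± 0.17 (SD, n = 4) and an adjusted p of 0.768.

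Neither Hspg2 probe was called. The brightest, at chr5:156266022-156266341, had mucosa signals of 15699, 15583, 15861 and 17240 and bulb signals of 23593, 25951, 18866 and 15829, and replicate 4 was the pair in which mucosa was above bulb. Its mean log2 ratio was -0.36 ± 0.38 (SD, n = 4), with a 95% interval of -0.92 to 0.20 before adjustment and an adjusted p of 0.388 in limma, and it was 0.01 under median centring. The other probe, at chr5:156326271-156326429, gave -0.53 ± 0.19 (SD, n = 4) with an adjusted p of 0.18.

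**Figure D3:**
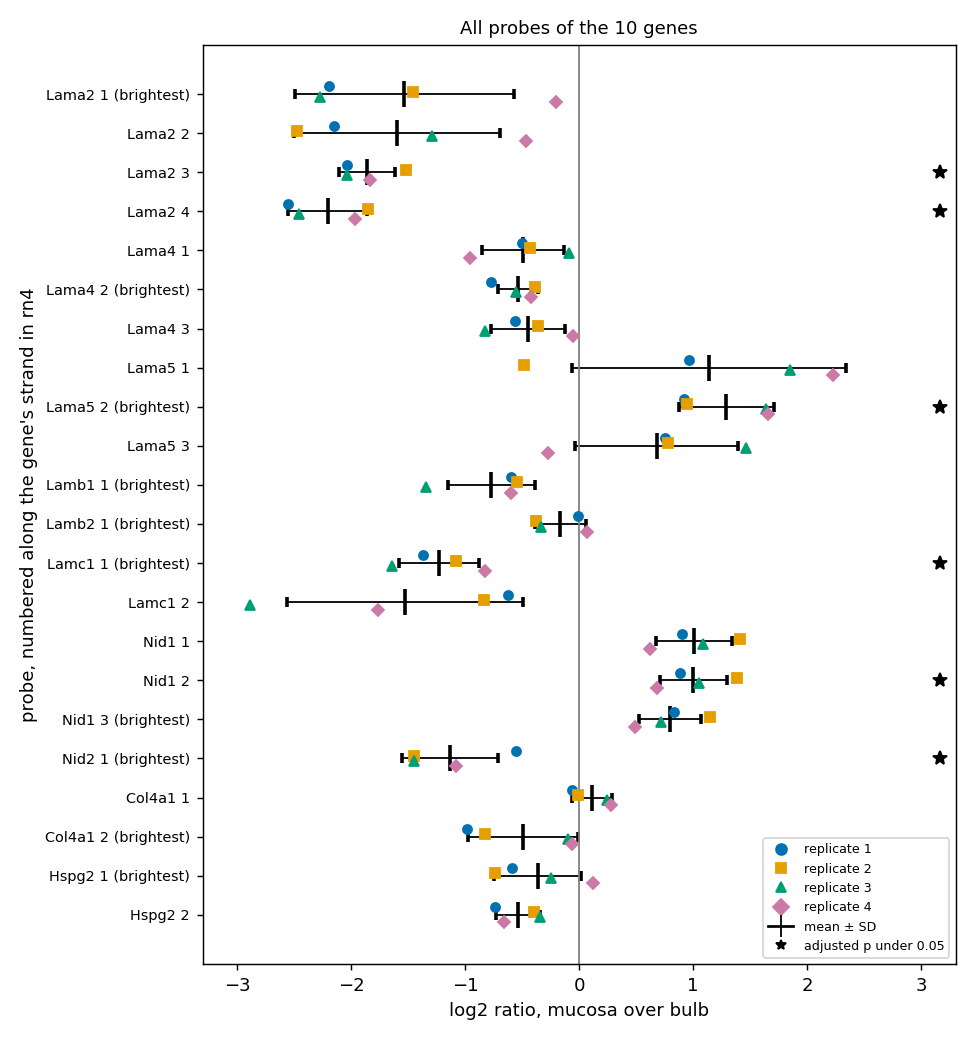
Every probe of the 10 genes has a row, with the log2 ratio of mucosa over bulb on the x axis, a coloured point per array and the mean with its SD in black. Stars mark the 6 probes with an adjusted p under 0.05 in the test of all probes. The points of replicate 4 at Lama2 probes 1 and 2 lie to the right of the other arrays.

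To ask which chain of a class each culture favoured over another, the log2 ratios of 5 pairs of genes were subtracted within each array. Each gene was read from its brightest probe. For Lama5 this was probe 2, the most even of its probes. Probe 1 was at -0.48 on replicate 2 and probe 3 at -0.27 on replicate 4. The signs of the Lama5 pairs below are therefore those of probe 2, and pairs with its other probes were not computed. A signed-change permutation over 4 arrays can give no p below 0.125, so the test cannot pass 0.05 and the sizes carry the comparison. Lama2 minus Lama5 was -3.12, -2.40, -3.91 and -1.87 on the 4 arrays, a mean of -2.82 ± 0.89 (SD, n = 4), so that the balance of these α chains was 7.08-fold further towards Lama2 in bulb than in mucosa. Lama4 minus Lama5 had a mean of -1.83 ± 0.39 (SD, n = 4) and was also below 0 on all 4 arrays. Lama2 minus Lama4, at -0.998 ± 0.853 (SD, n = 4), was below 0 on 3 arrays and was 0.22 on replicate 4. In the β chains, Lamb1 minus Lamb2 was -0.61 ± 0.34 (SD, n = 4), below 0 on all 4 arrays. Nid1 minus Nid2 was 1.39, 2.59, 2.17 and 1.57, a mean of 1.93 ± 0.55 (SD, n = 4), a 3.81-fold shift of the balance towards Nid1 in mucosa. By the exact 2-sided sign-flip permutation test the 4 pairs with 1 sign on all arrays had p = 0.125, the smallest this design allows, and Lama2 minus Lama4 had p = 0.25, or 0.156 and 0.25 adjusted over the 5 pairs. These differences compare changes, not amounts, because signals of different probes are not on 1 scale.

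**Figure D4:**
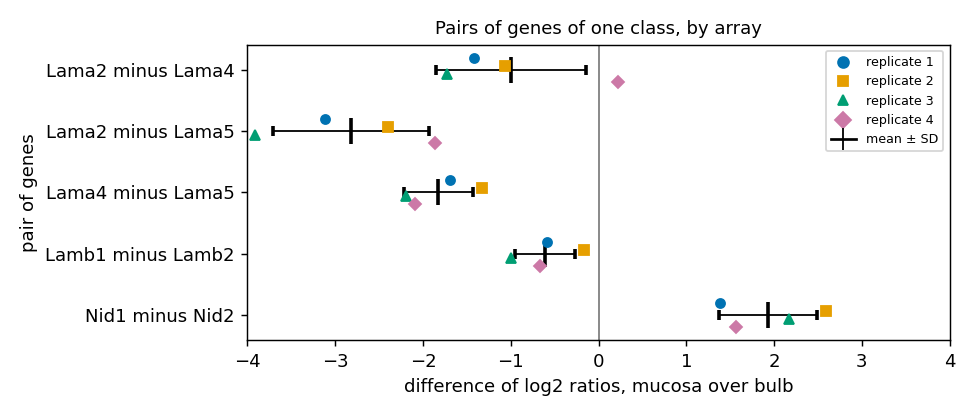
The x axis is the difference between the log2 ratios of 2 genes of a class on the same array, with a coloured point per array and the mean with its SD. Lama2 minus Lama4 is the row with a point on each side of 0, and the other rows have all 4 points on 1 side.

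None of the other laminin and type IV collagen genes named next passed the test of gene names. Col4a2, whose product joins that of Col4a1 in the common collagen trimer, had mucosa signals of 22651 to 28927 and bulb signals of 25682 to 34121. Its log2 ratios lay between -0.28 and -0.18, a mean of -0.22 ± 0.05 (SD, n = 4) with an adjusted p of 0.519. Col4a3 and Col4a4, chains of specialised basement membranes, had means of 0.32 ± 0.26 and 0.31 ± 0.14 (SD, n = 4), and Col4a6 had -0.76 ± 0.28 with an adjusted p of 0.0939 in limma's test of gene names. The Col4a5 probes gave -0.54 ± 1.22 and 0.20 ± 0.23 (SD, n = 4). The means were 0.22 ± 0.73 for Lama1, 0.80 ± 0.45 for Lama3 and 0.05 ± 0.45 for the brightest of 4 Lamb3 probes (SD, n = 4). Another Lamb3 probe was higher on all 4 arrays, at 1.03 ± 0.67 (SD, n = 4), with an adjusted p of 0.103 in limma's test of all probes. The Lamc3 probes disagreed. The brightest had a mean of -0.11 ± 0.26 (SD, n = 4) and an adjusted p of 0.777, and the other had mucosa signals of 608, 641, 865 and 782 against bulb signals of 1810, 1678, 2289 and 2035. At this second Lamc3 probe all mucosa cultures were below all bulb cultures, with a mean of -1.44 ± 0.09 (SD, n = 4) and an adjusted p of 0.0126, the 1 called probe among these chains. It lost the call without replicate 1 or 2, at adjusted p-values of 0.0619 and 0.0721 in limma.

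Around this core, other components of basement membranes moved in both directions. Of 26 tested, 3 were higher and 5 lower in mucosa, against 3.23% and 3.38% of all names, with a median log2 ratio of -0.03 against 0.01 over all names. This list, like those of receptors and of assembly genes below, was chosen with earlier results of these data known. Their counts beside the shares over all names are therefore descriptive. With 1 array left out, 4 were called lower in each case, and 1 was called higher without replicate 1 or 2 and 2 without replicate 3 or 4. Fbln1, encoding fibulin-1, a glycoprotein that binds laminin and nidogen and is also in the fibroblast list, fell by 4.15 ± 0.62 on the log2 scale in mucosa (SD, n = 4) at an adjusted p of 0.00197. Smoc1, a secreted modular calcium-binding glycoprotein, rose by 3.36 ± 1.03 at an adjusted p of 0.00845. Hmcn1, encoding hemicentin-1, was lower at -2.77 ± 0.46 with an adjusted p of 0.00387, and Tinagl1, a matricellular protein listed in the files as Lcn7, at -2.65 ± 0.59 with 0.00591, both in limma. Mucosa signals of Hmcn1 were well above background on 3 of 4 arrays. All 4 genes kept their call with any array left out.

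Of 19 genes listed as receptors of laminin or type IV collagen or their partners, 1 was higher and 3 lower in mucosa. The shares over all names were 3.23% and 3.38%, and the median log2 ratio of the list was -0.40. That median includes Dmd, Utrn, Sgcd, Sgce and Sgca, which do not encode such receptors themselves. Their log2 ratios were -0.68, -0.75, -1.02, -0.85 and 0.20, and none of them was called. Dag1 encodes dystroglycan, the receptor that binds the globular end of the laminin α2 chain, and it fell by 1.13 ± 0.16 on the log2 scale (SD, n = 4) at an adjusted p of 0.0267, with log2 ratios of -1.21, -0.90, -1.27 and -1.13. Itga7, the laminin-binding integrin chain α7, fell by 1.40 ± 0.47 at 0.028. The syndecans, cell surface heparan sulfate proteoglycans, split: Sdc3 was lower at -1.93 ± 0.45 with an adjusted p of 0.01, and Sdc4 higher at 1.38 ± 0.27 with 0.0182 in limma. Every sign was kept with any array left out. Dag1 lost its call without replicate 1, 2, 3 or 4 (adjusted p of 0.0803 to 0.0994), Itga7 and Sdc4 lost theirs without replicate 1, 2 or 3 (up to 0.12 and 0.0875), and Sdc3 without replicate 1 or 2 (up to 0.0593), all in limma.

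Of 18 genes for assembly and processing, 1 was higher and 1 lower, with a median of -0.02. A share of 6.62% was called over all names, so 2 of 18 is close to the background. Plod2, a lysyl hydroxylase of collagen, rose by 1.46 ± 0.35 on the log2 scale (SD, n = 4) at an adjusted p of 0.0186, and P3h2, a prolyl 3-hydroxylase of collagen IV listed in the files as Leprel1, fell by 2.31 ± 1.27 at 0.0427 in limma. Mucosa signals of P3h2 were well above background on 3 of 4 arrays, so its size rests in part on a signal near background. Both lost the call without replicate 1, 2, 3 or 4, at adjusted p-values of 0.0548 to 0.0863 for Plod2 and 0.06 to 0.139 for P3h2 in limma. Beside these lists stand the marker counts and summed signals given above.

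**Figure D5:**
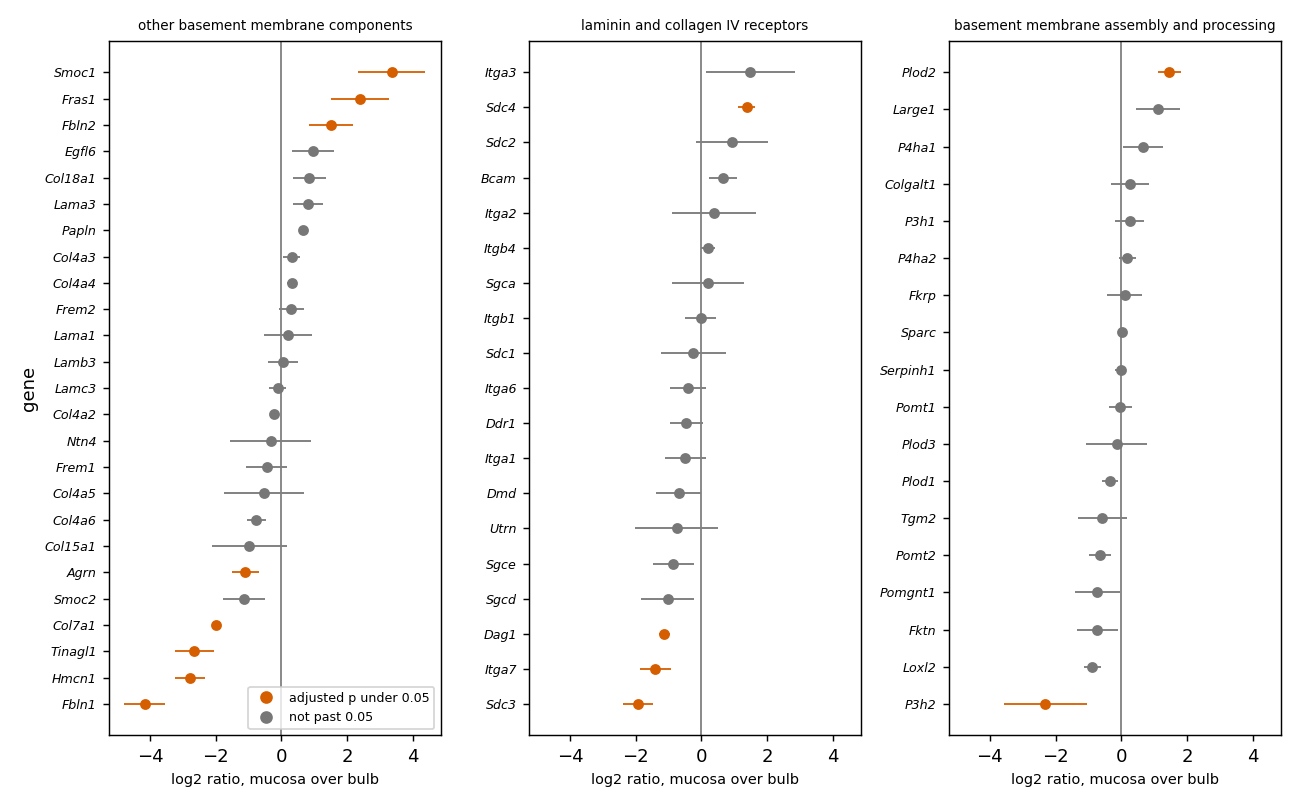
Each panel is a list of basement membrane genes, sorted by the mean log2 ratio of mucosa over bulb on the x axis, with bars of 1 SD over the arrays, and not every gene of a list is drawn. Genes with an adjusted p under 0.05 are in orange, and in each panel they lie on both sides of 0.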

How the data were processed

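Per the labels' protocols, cDNA was amplified by a global PCR of undisclosed detail, which can change transcript ratios. Per the file headers, Feature Extraction 10.5.1.1 made the scanner files, while the submitters' processing notes name 9.1. The spot and local background values deposited by the authors are linear intensity. The deposited log10 ratio and the deposited value table hold the same numbers (Cy5 over Cy3). The array columns without a sample number 0.

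Background was treated with normexp (offset 50) and each array with loess in limma 3.58.1 (R 4.3.3). Control and outlier spots had weight 0, outliers were left out, and spots of a probe were averaged. The filter kept a probe when 0.5 or more of its spots were well above background on 3 or more arrays in 1 channel or both. The brightest probe stood for a gene name. Mean log2 ratios were tested against 0 with lmFit and eBayes (6.365 degrees of freedom), with Benjamini-Hochberg adjustment at 0.05, over names and, separately, over probes. For 31 names, none of them described here, fewer than 4 arrays gave a ratio. Intervals are limma's at 95%. The code was tested on simulated data.

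Members, lists and markers were chosen with earlier results of these data known. All 10 genes are described with every probe. From each list the text names up to 4 called genes of largest ratio, and other laminin and type IV collagen chains. Some items are not reported here. Names came from the files or through the RefSeq table. All arrays were on 1 slide with 1 scan time. Pairing is within each array, as the design states. Alternatives were the background, normalization, filter, probe choice, variance model, pairing and each array left out. Python 3.11.15 and matplotlib 3.10.9 drew the figures.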

Additional observations from a re-analysis of the deposited data

Results flagged for a closer look

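The log2 ratio of the Lamb1 probe on replicate 3, at -1.34, lay far from those of the other 3 arrays, which were between -0.60 and -0.55. It was 1 of 27 sets of 4 values examined for a value far from the rest. Chance flags about 1 in 20 such sets.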

How the results depend on the processing

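Direction was kept in every alternative by Lama2, Lama4, Lama5, Lamb1, Lamc1, Nid1, Nid2 and the brightest Col4a1 probe, while Lamb2 and Hspg2 turned to 0.15 and 0.011 under median centring. Among 16 settings other than leaving out an array, Lama5 and Lamc1 were called in 13, Nid2 in 10, Lama2 in 4 and Nid1 in 3. Some of these settings are repeats, so the counts overstate the range tried. Leaving out saturated spots, of which there were 0, could not change the main ratios. Neither could evening out mean intensity between arrays, which leaves the ratio within an array as it is. Both are among the settings counted here. At most 4 arrays limit all of these calls. The deposited log ratio and the value table, which are the same numbers, each called 0 of the 10 genes in limma, with 6 at an unadjusted p under 0.05, and 2 of the 22 probes. With array weights and with a trended robust variance 5 genes were called each. The cause was not tested. With 1 array left out, the names called numbered 561 to 1065, the genes called 0 to 1 (5 or 6 at an unadjusted p under 0.05 in limma) and the probes called 2 to 4, with fewer arrays in each fit. Lama2 probes 3 and 4 were called in all 9 other settings, which include the same repeats, and with any array left out. With 1 array left out the mean differences were -1.40 to -0.76 for Lama2 minus Lama4, -3.14 to -2.46 for Lama2 minus Lama5, -1.99 to -1.70 for Lama4 minus Lama5, -0.75 to -0.47 for Lamb1 minus Lamb2 and 1.71 to 2.11 for Nid1 minus Nid2. With no replicate block, treating the 8 channels as unpaired, 3479 names were called against 2110.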
